A study of Mus musculus with 10 samples.

Results

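The genes of mitosis and of the G2/M transition, which drive a cell from the end of DNA synthesis through chromosome segregation to cell separation, were examined in bEnd3 cells given the transcription factor GATA4. The list named 56 genes. A gene was a member where the platform annotation gave a feature its symbol, which held for 55 of the 56 (Ccnb1 was not analysed here), out of 23111 genes with a symbol. bEnd3 is a mouse brain endothelial cell line immortalised with the polyoma middle T antigen, so it divides continuously in culture. Cells were transduced with a lentivirus in which the EF1α promoter drives mouse Gata4, from a codon-optimized cDNA, together with mCherry and a puromycin resistance gene (Gata4, 5 samples), or with the same vector without Gata4 (EV, empty vector, 5 samples). Both groups thus carried mCherry and the resistance gene and were selected with 2 μg/ml puromycin. Titles call the samples biological replicates without naming separate transductions, so a p-value here speaks only of the scatter among these 10 samples, which may be technical. Total RNA was measured on Affymetrix arrays, and values are log2 expression values made by RMA, which background-corrects, quantile-normalizes and summarizes the probes of a feature.

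Entry into mitosis depends on the kinase CDK1, which is switched on by cyclins A and B and by CDC25 phosphatases. Transcription of most members peaks late in the cell cycle through the factors FOXM1 and B-MYB with the MuvB complex and NF-Y, and the DREAM complex represses the same genes in resting cells. In endothelium these genes are known as marks of dividing cells, as in growing vessels, whereas most endothelial cells of adult organs rest.

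The 10 samples separated by group on the first principal component, which held 73.6% of the variance. On the second (5.26%), EV replicates 1 and 2 (-12.8 and -14.4) lay apart from the other EV samples (5.55 to 13.3), while the Gata4 samples lay between -5.04 and 4.90. The member results were therefore also computed without those EV replicates. The Gata4 feature stood at 4.85, 4.93, 4.80, 4.57 and 4.59 in the EV samples and at 4.83, 5.28, 5.12, 5.17 and 5.03 in the Gata4 samples. It was called higher (log2 change 0.34 ± 0.09 (SE), limma adjusted p = 0.017) although the groups overlapped, and because the transgene is codon-optimized this feature need not detect it. Endothelial markers were at high levels in both groups: the mean over 10 of them lay between 11.38 and 11.56 in EV samples and between 11.35 and 11.39 in Gata4 samples. That mean covers calls in both directions: Cdh5, Kdr, Flt1 and Cldn5 were called lower and Tek, Tie1 and Emcn higher, with Kdr 2.26-fold and Cldn5 2.06-fold lower and Tek 2.89-fold higher. Of 28 markers of fibroblasts, pericytes, blood cells, epithelium and neural cells, 2 were called lower (Pdgfra, Acta2) and 4 higher (Dcn, Col3a1, Rgs5, Tubb3). Their mean lay between 3.73 and 3.94 in EV samples and between 3.84 and 3.87 in Gata4 samples, below the 4.16 median of all features. Single markers ran from 2.72 to 6.74 in their mean over all samples, so some lay above that median. Tubb3 was 2.43-fold higher and Pdgfra 2.02-fold lower. Acta2 (smooth muscle actin) was highest in EV replicates 1 and 2 (7.50 and 7.95, against 6.48 to 6.86 in the other EV samples). The part of these markers in the results was not tested.

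Most members were lower in the Gata4 samples. By limma over all genes, at a Benjamini-Hochberg adjusted p under 0.05, 44 of the 55 were called lower (80.0%), 1 (Ncaph) higher and 10 neither. Over all 23111 genes 13.2% were called lower and 12.4% higher, 25.6% in either direction. Calls were more frequent at levels like those of the members: among the 2870 genes whose mean level lay between the lower and upper quartile of the members' levels, 26.7% were called lower and 23.2% higher. For 38 members every Gata4 sample lay below every EV sample (69.1%, against 10.5% of all genes), and for 1 every Gata4 sample lay above (10.5% of all genes). Among the 2870 genes at the members' levels, 655 lay below in this way and 609 above. In the other 6 members called lower, Birc5, Ccnb2, Cdca8, Espl1, Kif11 and Plk1, the groups overlapped. The falls were small. The median log2 change of the members was -0.41, a 1.33-fold fall, against -0.01 over all genes. Of the 44, 10 fell by more than 1.5-fold and 1, Foxm1, by more than 2-fold. Over all 23111 genes, 778 were called lower by more than 1.5-fold and 324 by at least 2-fold. Among the 2870 genes at the members' levels these counts were 166 and 55. Without EV replicates 1 and 2, a setting added after the data were seen, 45 were called lower and 1 higher, and the median was -0.44. In that setting Plk1 and Birc5 were no longer called (adjusted p = 0.069 and 0.052), and Bub1b, Kif23 and Ncapd2 were called lower (adjusted p = 0.021, 0.048 and 0.0063). In a bulk RNA sample, fewer cells in G2 or mitosis and less of these RNAs per cell cannot be told apart.

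**Figure D1:**
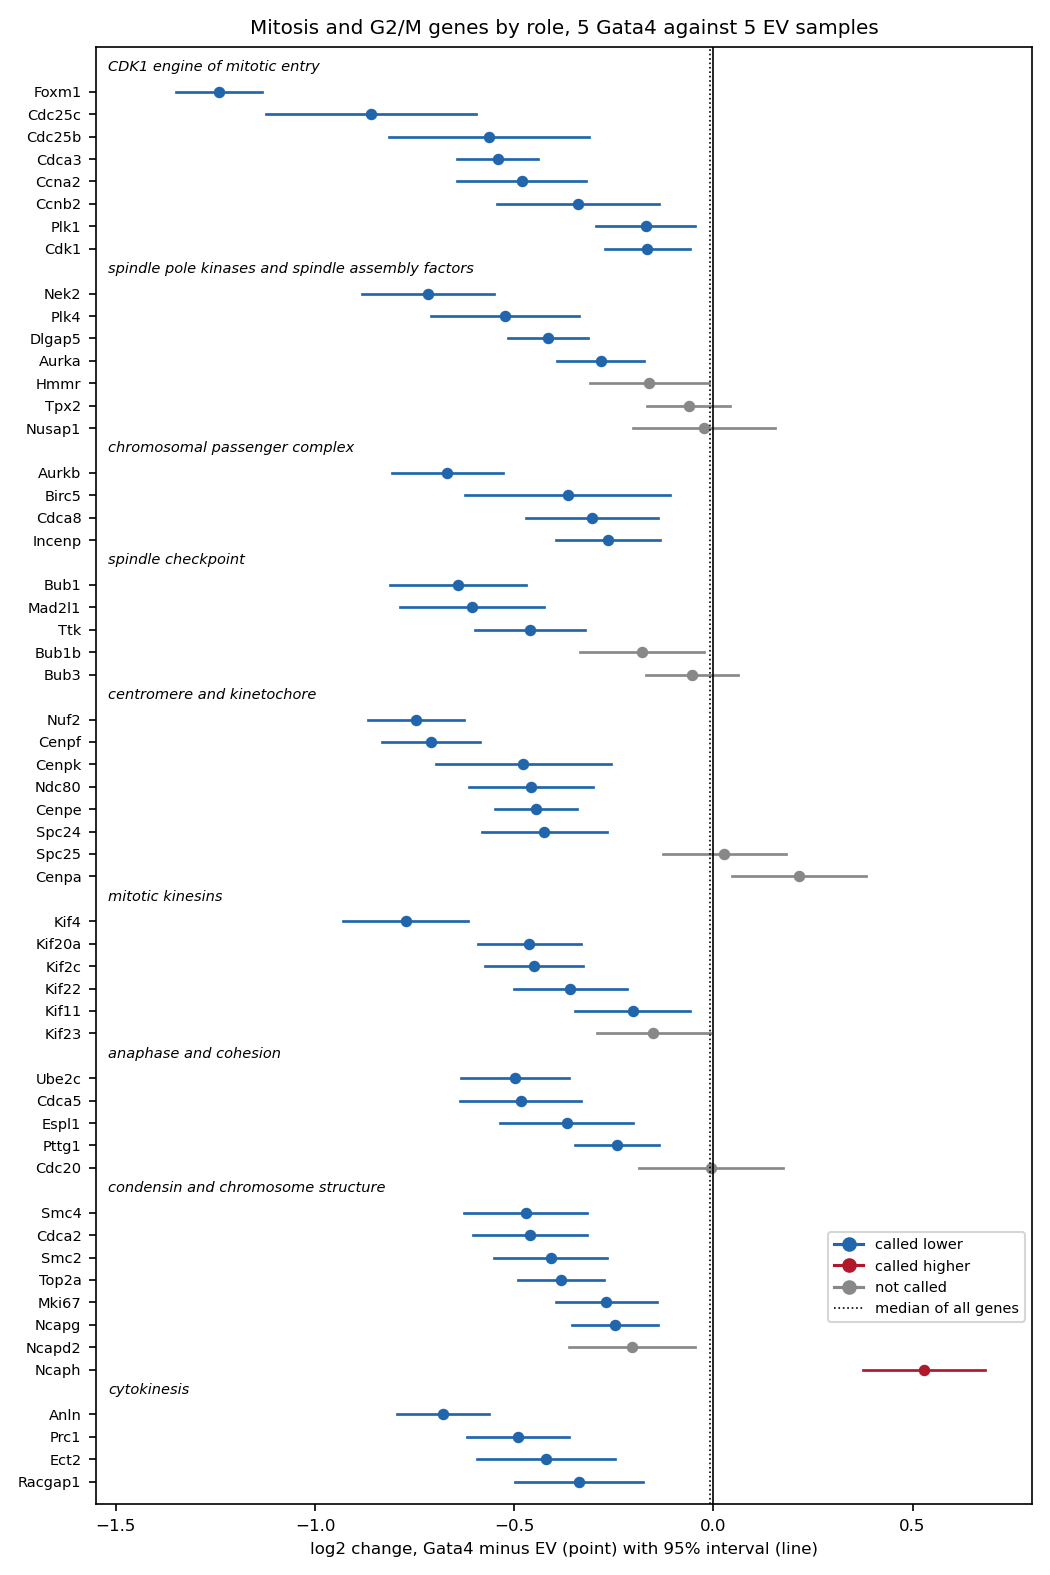
Log2 change, Gata4 minus EV, of each of the 55 members (points) with its 95% interval from limma (lines), grouped by role. The points of 44 members called lower lie left of 0, Ncaph alone is called higher, and the 10 grey members, called neither way, lie between -0.20 and 0.22.

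Promoters of the members were set against all promoters. The list was drawn from genes of G2/M, most of which are transcribed through MuvB and NF-Y, as stated above. High shares of the motifs below are thus expected of the class, and their part in the change was not tested. The RefSeq promoter table (GRCm38.p6, 250 bases before to 50 after a gene's transcript start) held 44 of the 55 measured members, each taken by its first listed start. Aurkb, Ccna2, Cdc25c, Cdca2, Dlgap5, Foxm1, Incenp, Kif20a, Smc4, Spc24 and Tpx2 were not matched. Searched on both strands were CCAAT, the box bound by NF-Y, and TTTGAA, a form of the cell cycle genes homology region (CHR). MuvB complexes bind through the CHR. Other forms of it were not searched, so a promoter without TTTGAA may still hold a CHR. The motifs can share a base, and 1 CCAAT match overlapped a TTTGAA match. At least 1 CCAAT stood in 33 of the 44 promoters (75.0%), against 37.9% of all 27025 promoters and 38.5% of the 16930 promoters of genes tested here. TTTGAA stood in 32 (72.7%), against 18.1% and 15.7%. Both stood in 28 (63.6%), against 7.12% and 6.44%. A match is a description of letters and not a measured binding site.

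Of 41 TTTGAA matches 33 began within 100 bases before the start or after it, with a median first base at -9, and of 73 CCAAT matches 49 did, with a median at -68. The median log2 change was -0.34 for the 32 members with TTTGAA and -0.50 for the 12 without it, and 8 of the 9 matched members that were not called held both motifs. CCAAT and TTTGAA both stood in 20 of the 34 matched members called lower (58.8%). A GATA core, searched as GATAA, stood in 8 of the 44 member promoters (18.2%), against 25.8% of all promoters and 22.3% of those of genes tested. Neither CCAAT nor TTTGAA was found in 7 of these windows: Birc5, Mad2l1, Ncaph, Nuf2, Nusap1, Plk4 and Pttg1.

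For each role group the called member with the largest change was taken, and the 6 with the largest changes among those in the table are printed to show how members that moved differ in these motifs. They run 5′ to 3′ on the gene's strand, with CCAAT and TTTGAA, or the same letters read on the other strand (ATTGG and TTCAAA), in capitals. Kif4 held both motifs, Anln only TTTGAA, Nek2 and Bub1 only CCAAT, and Nuf2 and Ncaph neither. Nuf2 was among the largest falls and Ncaph was the member called higher.
Kif4, chrX:100625815-100626114, plus strand: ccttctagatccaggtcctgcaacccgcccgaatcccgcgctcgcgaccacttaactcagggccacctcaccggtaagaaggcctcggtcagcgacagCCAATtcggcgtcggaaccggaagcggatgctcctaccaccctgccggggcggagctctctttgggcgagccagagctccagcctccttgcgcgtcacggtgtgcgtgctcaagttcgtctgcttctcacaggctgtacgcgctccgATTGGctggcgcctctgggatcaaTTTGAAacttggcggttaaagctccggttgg
Nuf2, chr1:169531415-169531714, minus strand: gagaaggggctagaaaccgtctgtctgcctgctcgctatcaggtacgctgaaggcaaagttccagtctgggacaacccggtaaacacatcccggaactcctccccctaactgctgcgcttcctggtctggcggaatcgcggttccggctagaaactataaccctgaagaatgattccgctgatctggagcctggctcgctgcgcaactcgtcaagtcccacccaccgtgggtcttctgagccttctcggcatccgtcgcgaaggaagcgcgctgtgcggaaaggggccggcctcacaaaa
Nek2, chr1:191821223-191821522, plus strand: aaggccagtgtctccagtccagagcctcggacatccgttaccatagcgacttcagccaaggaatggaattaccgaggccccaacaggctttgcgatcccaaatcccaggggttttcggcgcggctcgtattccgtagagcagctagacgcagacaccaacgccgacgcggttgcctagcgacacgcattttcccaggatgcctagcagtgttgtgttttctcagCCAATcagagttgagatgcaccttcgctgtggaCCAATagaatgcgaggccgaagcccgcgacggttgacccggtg
Anln, chr9:22389157-22389456, minus strand: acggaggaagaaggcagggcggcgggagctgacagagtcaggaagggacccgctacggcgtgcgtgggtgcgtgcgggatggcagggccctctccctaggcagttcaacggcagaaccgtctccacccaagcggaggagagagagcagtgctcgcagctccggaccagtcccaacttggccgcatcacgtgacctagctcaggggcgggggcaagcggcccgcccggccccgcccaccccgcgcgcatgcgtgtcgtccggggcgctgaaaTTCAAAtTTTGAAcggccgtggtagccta
Bub1, chr2:127831810-127832109, minus strand: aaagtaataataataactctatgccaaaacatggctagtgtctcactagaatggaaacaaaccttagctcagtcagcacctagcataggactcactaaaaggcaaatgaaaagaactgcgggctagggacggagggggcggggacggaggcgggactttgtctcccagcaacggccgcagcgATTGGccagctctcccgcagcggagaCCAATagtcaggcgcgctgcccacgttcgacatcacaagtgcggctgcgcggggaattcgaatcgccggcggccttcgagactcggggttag
Ncaph, chr2:127133905-127134204, minus strand: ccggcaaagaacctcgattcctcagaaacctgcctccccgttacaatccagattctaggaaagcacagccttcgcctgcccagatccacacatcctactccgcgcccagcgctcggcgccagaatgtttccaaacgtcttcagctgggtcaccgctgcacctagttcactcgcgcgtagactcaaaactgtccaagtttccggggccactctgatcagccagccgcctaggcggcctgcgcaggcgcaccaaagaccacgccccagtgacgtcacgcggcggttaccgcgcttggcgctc

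**Figure D2:**
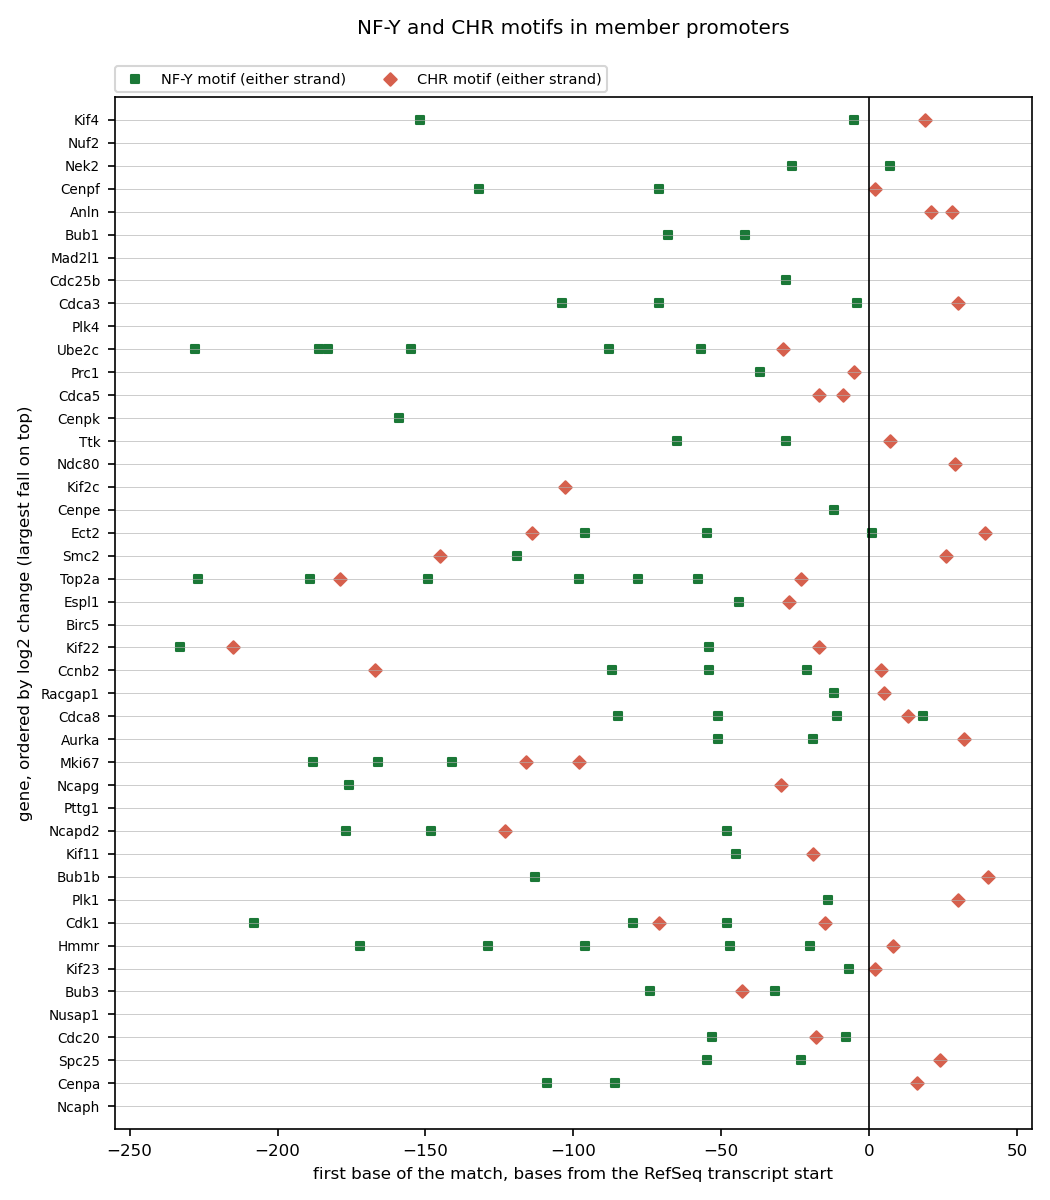
Positions of CCAAT (NF-Y motif, squares) and TTTGAA (a CHR form, diamonds) matches on either strand in the promoters of the 44 matched members. Positions are in bases from the RefSeq transcript start, with genes ordered from the largest fall to the rise of Ncaph. Diamonds gather around the start (median -9), squares before it (median -68), and 7 genes show neither.

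The engine of mitotic entry was lower throughout: all 8 measured genes were called lower, with a median log2 change of -0.51. The largest fall of the members was that of Foxm1, the transcription factor of G2/M genes, at 9.49, 9.48, 9.46, 9.57 and 9.50 in the EV samples and at 8.14, 8.31, 8.22, 8.29 and 8.32 in the Gata4 samples. All Gata4 samples lay more than 1 log2 unit below all EV samples. The log2 change was -1.24 ± 0.05 (SE), or 2.36-fold lower (adjusted p = 1.5e-09). Cdc25c encodes a phosphatase that activates CDK1 and stood at 6.06, 5.77, 5.94, 5.94 and 6.26 in the EV samples and at 4.97, 4.79, 5.33, 5.13 and 5.44 in the Gata4 samples. Gata4 replicate 5 was the highest of its group and still below EV replicate 2, the lowest of the other group (log2 change -0.86 ± 0.12 (SE), adjusted p = 0.00014). The related phosphatase gene Cdc25b fell by 0.56, Cdca3, which promotes the destruction of the CDK1 inhibitor kinase WEE1, by 0.54, and the cyclin A2 gene Ccna2 by 0.48. The cyclin B2 gene Ccnb2 fell by 0.34 and its groups overlapped. Cdk1 itself fell by 0.17 (adjusted p = 0.025) and Plk1, the polo-like kinase that drives mitotic entry, by 0.17 (adjusted p = 0.045), the smallest falls of the called members. The call of Cdk1 was lost without any 1 of Gata4 replicates 1, 3 and 4 and EV replicates 4 and 5 (adjusted p = 0.053 to 0.061). That of Plk1 was lost without any 1 sample other than Gata4 replicate 1 and EV replicate 2 (adjusted p = 0.071 to 0.11).

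**Figure D3:**
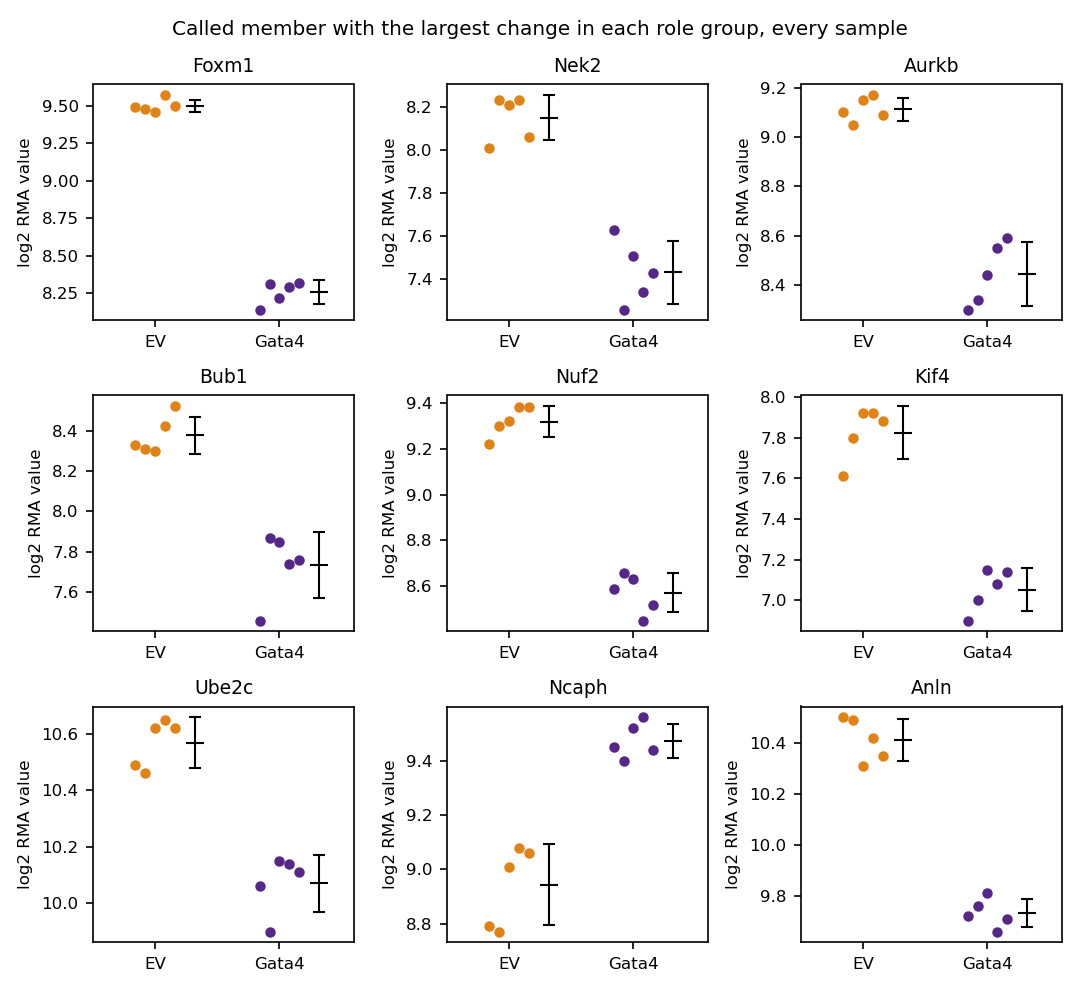
Log2 RMA values of the called member with the largest change in each of the 9 role groups, with every EV (orange) and Gata4 (purple) sample as a point, in the order of replicate numbers, and the mean ± SD of 5 samples beside them. In each panel the groups do not overlap, and Ncaph is the one panel in which the Gata4 samples are higher. Axes differ between panels.

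Among the kinases of the spindle pole and the factors of spindle assembly, 4 of 7 were called lower and 0 higher. Nek2, a kinase that splits the centrosomes, stood at 8.01, 8.23, 8.21, 8.23 and 8.06 in the EV samples and at 7.63, 7.26, 7.51, 7.34 and 7.43 in the Gata4 samples. The groups were separate, and the log2 change was -0.72 ± 0.08 (SE) (adjusted p = 1.1e-05). Plk4, the kinase that starts centriole duplication, stood at 8.48, 8.30, 8.29, 8.33 and 8.11 in the EV samples and at 7.50, 7.87, 7.91, 7.79 and 7.83 in the Gata4 samples. Gata4 replicate 1 was well below the other Gata4 samples, and without it Plk4 was still called lower (log2 change -0.45, adjusted p = 0.00052), against -0.52 ± 0.09 (SE) with all samples (adjusted p = 0.00048). Dlgap5, a microtubule-bundling factor, fell by 0.41 and Aurka, the spindle pole Aurora kinase, by 0.28. Its activator gene Tpx2 was not called, with a log2 change of -0.06 (95% interval -0.17 to 0.04). Such intervals are for 1 gene and are not adjusted, so one can leave out 0 for a gene that was not called. Hmmr, a spindle pole protein gene, was at -0.16 (-0.31 to -0.01) and Nusap1, a spindle microtubule stabilizer, at -0.02 (-0.20 to 0.15), and neither was called.

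The chromosomal passenger complex, which corrects faulty attachments and later guides cytokinesis, was lower in all 4 genes. Its kinase gene Aurkb stood at 9.10, 9.05, 9.15, 9.17 and 9.09 in the EV samples and at 8.30, 8.34, 8.44, 8.55 and 8.59 in the Gata4 samples, with a gap between the groups and a log2 change of -0.67 ± 0.06 (SE) (adjusted p = 4.3e-06). Birc5, which encodes survivin, the subunit that brings the complex to centromeres, stood at 6.99, 6.80, 7.00, 6.87 and 7.30 in the EV samples and at 6.73, 6.62, 6.39, 6.40 and 6.97 in the Gata4 samples. Its groups overlapped, since Gata4 replicate 5 (6.97) lay above EV replicates 2 and 4, and its log2 change was -0.37 ± 0.12 (SE) (adjusted p = 0.038). The Birc5 call was lost without any 1 of Gata4 replicates 2, 3 and 4 and EV replicates 1, 3 and 5 (adjusted p = 0.066 to 0.096). The borealin gene Cdca8 and the scaffold gene Incenp fell by 0.30 and 0.27.

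The spindle checkpoint delays anaphase until every kinetochore is attached, and 3 of its 5 genes were called lower. Bub1, a checkpoint kinase, stood at 8.33, 8.31, 8.30, 8.42 and 8.52 in the EV samples and at 7.46, 7.87, 7.85, 7.74 and 7.76 in the Gata4 samples. Every Gata4 sample was below every EV sample (log2 change -0.64 ± 0.08 (SE), adjusted p = 4.3e-05). Mad2l1, which encodes the MAD2 inhibitor of anaphase, stood at 9.32, 9.32, 9.43, 9.58 and 9.49 in the EV samples and at 8.84, 8.58, 8.85, 9.05 and 8.79 in the Gata4 samples and also showed no overlap (log2 change -0.61 ± 0.08 (SE), adjusted p = 0.00011). Ttk, the MPS1 kinase gene, fell by 0.46. Bub1b (BUBR1) and Bub3, which carry the checkpoint signal with MAD2, were not called, at -0.18 (95% interval -0.34 to -0.02) and -0.05 (-0.17 to 0.06).

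At centromeres and kinetochores, which link chromosomes to microtubules, 6 of 8 genes were called lower and 0 higher. Nuf2, a subunit of the microtubule-binding NDC80 complex, stood at 9.22, 9.30, 9.32, 9.38 and 9.38 in the EV samples and at 8.59, 8.66, 8.63, 8.45 and 8.52 in the Gata4 samples. The gap between the groups was wider than the range of either one (log2 change -0.75 ± 0.06 (SE), adjusted p = 4.4e-07). Cenpf, a large protein of the outer kinetochore, stood at 7.99, 7.77, 7.89, 7.86 and 7.96 in the EV samples and at 7.15, 7.27, 7.25, 7.14 and 7.11 in the Gata4 samples, again with separate groups (log2 change -0.71 ± 0.06 (SE), adjusted p = 8.5e-07). Cenpk fell by 0.48 and had values from 3.94 to 4.90, near the median of all features, where part of the signal may be background and a fold may be understated. Ndc80 fell by 0.46, the kinesin gene Cenpe by 0.44 and Spc24 by 0.42. Cenpa, the histone variant of centromeres, was at 0.22 (95% interval 0.05 to 0.38, adjusted p = 0.061) and was not called. It was called higher without EV replicate 4 or 5 (adjusted p = 0.046 and 0.012). Over the 21 alternative settings its log2 change lay between 0.11 and 0.27 (adjusted p = 0.012 to 0.35), and 7 of them called it higher. The lowest change, 0.11, came without EV replicates 1 and 2, its lowest EV samples, and Cenpa was not called there.

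The other gene of the NDC80 complex was not called. Spc25 stood at 8.25, 8.24, 8.40, 8.41 and 8.55 in the EV samples and at 8.30, 8.48, 8.27, 8.42 and 8.51 in the Gata4 samples, with overlapping groups and a log2 change of 0.03 (95% interval -0.13 to 0.18) that was not called. Spc25 minus the mean of Ndc80, Nuf2 and Spc24 was -0.82 ± 0.08 in EV samples and -0.25 ± 0.13 in Gata4 samples (SD, n = 5 each), a difference of 0.57 ± 0.07 (SE). The groups did not overlap in it. It was chosen after the values were seen and is given as a description, with no test.

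Mitotic kinesins, motors that build the spindle and move chromosomes, were called lower in 5 of 6 cases. Kif4, a chromosome-bound kinesin, stood at 7.61, 7.80, 7.92, 7.92 and 7.88 in the EV samples and at 6.90, 7.00, 7.15, 7.08 and 7.14 in the Gata4 samples. EV replicate 1 was the lowest EV sample and still lay above all Gata4 samples (log2 change -0.77 ± 0.07 (SE), or 1.71-fold lower, adjusted p = 3.7e-06). Kif20a, a motor of the central spindle, stood at 8.78, 8.82, 8.95, 8.94 and 9.02 in the EV samples and at 8.39, 8.35, 8.42, 8.52 and 8.51 in the Gata4 samples (log2 change -0.46 ± 0.06 (SE), adjusted p = 6.3e-05). The groups were again separate. Kif2c, a microtubule depolymerase, fell by 0.45, Kif22, a chromosome arm motor, by 0.36 and Kif11, which pushes spindle poles apart, by 0.20 (adjusted p = 0.042), with overlapping groups. The Kif11 call was lost without any 1 of Gata4 replicates 1, 3, 4 and 5 and EV replicates 3, 4 and 5 (adjusted p = 0.062 to 0.10). Kif23, a subunit of centralspindlin, was not called, at -0.15 (95% interval -0.29 to -0.01), but was called lower without EV replicate 1 (adjusted p = 0.042).

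Of the 5 genes of anaphase and sister chromatid cohesion, 4 were called lower. Ube2c, the ubiquitin-conjugating enzyme of the anaphase-promoting complex (APC/C), stood at 10.49, 10.46, 10.62, 10.65 and 10.62 in the EV samples and at 10.06, 9.90, 10.15, 10.14 and 10.11 in the Gata4 samples, with a gap between the groups (log2 change -0.50 ± 0.06 (SE), adjusted p = 5.2e-05). Cdca5, the cohesin protector sororin, stood at 8.65, 8.60, 8.64, 8.68 and 8.72 in the EV samples and at 8.37, 8.02, 8.05, 8.28 and 8.14 in the Gata4 samples, likewise without overlap (log2 change -0.48 ± 0.07 (SE), adjusted p = 0.00016). The separase gene Espl1 fell by 0.37 and Pttg1, which encodes its inhibitor securin, by 0.24. Cdc20, the activator of the APC/C, stood at 9.26, 9.36, 9.51, 9.41 and 9.37 in the EV samples and at 9.48, 9.07, 9.37, 9.48 and 9.48 in the Gata4 samples. Gata4 replicate 2 was the lowest of all 10 samples, the other values of the groups were mixed, and the log2 change of -0.01 (95% interval -0.19 to 0.17) was not called.

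Condensin and other chromosome proteins split. Of 8 genes, 6 were called lower, 1 higher and 1 neither. Smc4, a core ATPase of condensin, stood at 9.92, 9.85, 9.81, 9.83 and 9.82 in the EV samples and at 9.37, 9.56, 9.47, 9.15 and 9.31 in the Gata4 samples, without overlap (log2 change -0.47 ± 0.07 (SE), adjusted p = 0.00023). Its partner Smc2 fell by 0.41 and the subunit gene Ncapg by 0.25, while Ncapd2 was not called, at -0.20 (95% interval -0.36 to -0.05). Ncapd2 was called lower without Gata4 replicate 4, EV replicate 1 or EV replicate 2 (adjusted p = 0.047, 0.041 and 0.022). Of the 21 alternative settings 9 called it lower, with log2 changes between -0.30 and -0.16 over all of them. Ncaph, the kleisin subunit of the same condensin I complex, stood at 8.79, 8.77, 9.01, 9.08 and 9.06 in the EV samples and at 9.45, 9.40, 9.52, 9.56 and 9.44 in the Gata4 samples. Every Gata4 sample was above every EV sample, and EV replicates 1 and 2 were the lowest (log2 change 0.53 ± 0.07 (SE), or 1.44-fold higher, adjusted p = 8.4e-05). Without those EV replicates the log2 change was 0.42 (adjusted p = 0.00027).

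Ncaph minus the mean of Smc2, Smc4, Ncapd2 and Ncapg was -0.14 ± 0.12 in EV samples and 0.72 ± 0.07 in Gata4 samples (SD, n = 5 each). The difference was 0.86 ± 0.06 (SE) and the groups did not overlap, again as a description chosen after the values were seen. Among the other chromosome proteins, Cdca2, which recruits a phosphatase to anaphase chromosomes, fell by 0.46 and Top2a, the topoisomerase that untangles sister chromatids, by 0.38. Mki67, the Ki-67 gene used as a mark of dividing cells, fell by 0.27 (adjusted p = 0.0038), or 1.20-fold.

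Cytokinesis genes were lower in all 4 cases, each without overlap of the groups. Anln, an actin-binding scaffold of the cleavage furrow, stood at 10.50, 10.49, 10.31, 10.42 and 10.35 in the EV samples and at 9.72, 9.76, 9.81, 9.66 and 9.71 in the Gata4 samples. The groups lay far apart relative to their ranges (log2 change -0.68 ± 0.05 (SE), adjusted p = 6.8e-07). Prc1, which bundles the central spindle, stood at 9.74, 9.70, 9.85, 9.90 and 9.82 in the EV samples and at 9.32, 9.22, 9.26, 9.30 and 9.46 in the Gata4 samples (log2 change -0.49 ± 0.06 (SE), adjusted p = 3.6e-05). Ect2, the exchange factor that activates RhoA at the furrow, fell by 0.42 and Racgap1, the other subunit of centralspindlin, by 0.34, while the centralspindlin motor gene Kif23 was not called.

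The members' levels also differed among samples of 1 group. The median over the members was 8.68, 8.77, 8.86, 8.94 and 8.95 in EV replicates 1 to 5 and 8.39, 8.48, 8.44, 8.52 and 8.52 in Gata4 replicates 1 to 5. The groups did not overlap. EV replicates 1 and 2, the samples that lay apart, had the lowest EV value in 21 and 22 of the 55 members, against 19.4% and 20.3% of all genes. EV replicate 5 had the highest EV value in 25 members (45.5%, against 20.8% of all genes) and Gata4 replicate 5 the highest Gata4 value in 22 (40.0%, against 18.6%). All members of a sample share its array, so these counts describe the samples and are not independent observations.

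**Figure D4:**
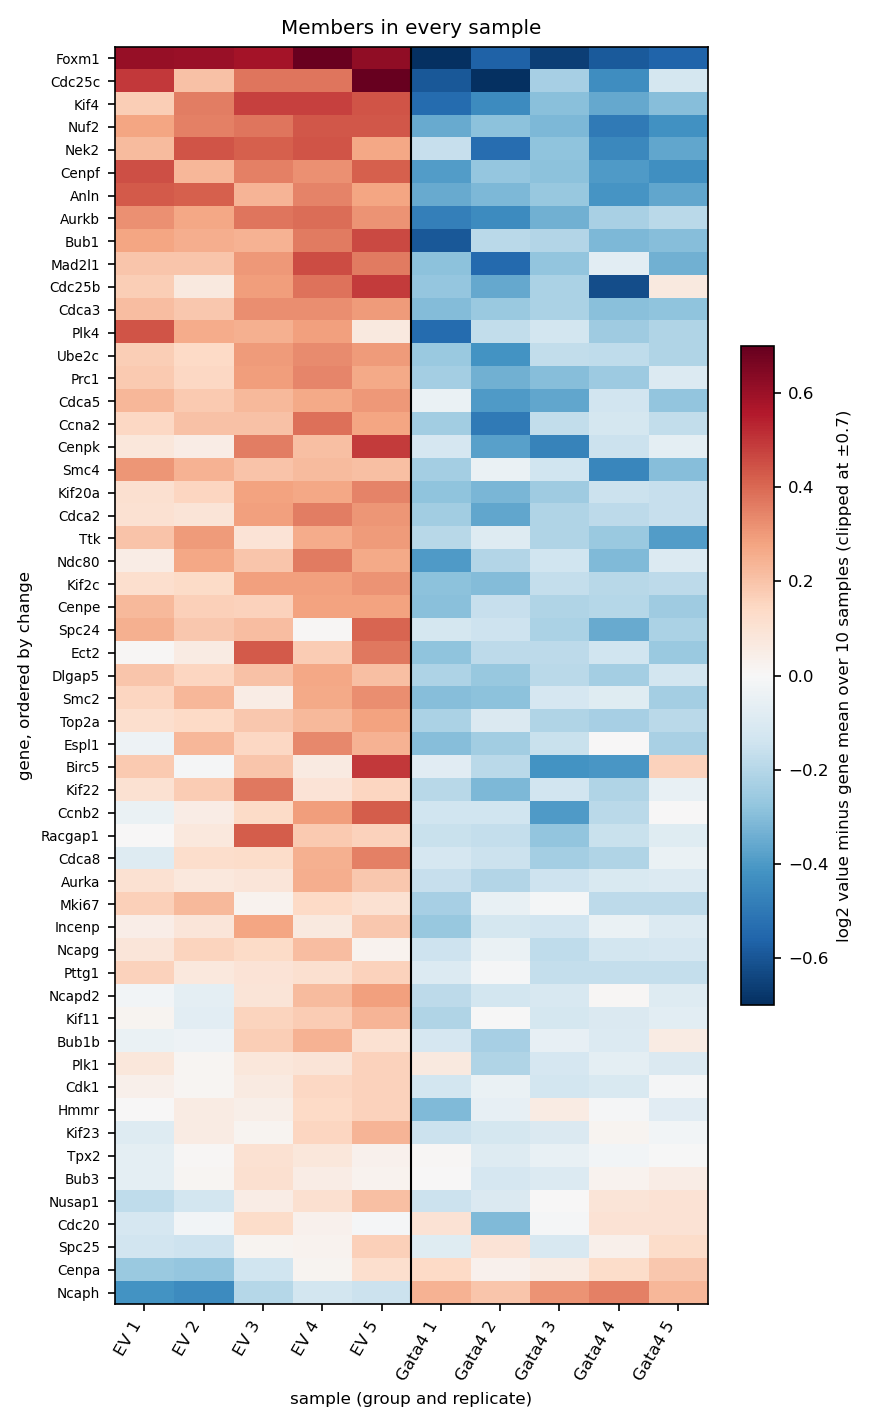
Each member (row, ordered by log2 change) in each sample (column), as its log2 value minus its mean over the 10 samples. Most rows are higher in all EV columns and lower in all Gata4 columns, Ncaph at the bottom is the opposite, and EV 1 and EV 2 are paler than EV 4 and EV 5 in many rows.

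Other genes of cell division, in lists that hold no member, were compared by counts. Of 12 other regulators of mitotic entry 8 were called lower and 1 higher, with a median of -0.46. Mybl2, which encodes B-MYB, fell by 0.89 and Wee1, the kinase that holds CDK1 inactive, fell by 0.84, so the inhibitor and its opposing phosphatase gene Cdc25c were both lower, and Gtse1 rose by 0.25. Of 27 other kinetochore and centromere genes 20 were called lower and 1 higher (median -0.37). Cenpu fell by 0.79, the cohesion protector gene Sgo2a by 0.76, and Cenpt rose by 0.26. Of 19 other spindle and cytokinesis genes 15 were called lower and 1 higher (median -0.32), led by Troap (-0.78) and the abscission gene Cep55 (-0.73), while Psrc1 rose by 0.48.

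In the APC/C list the shares called were near those of all genes at the members' levels (26.7% lower and 23.2% higher). Of 15 genes of the APC/C and its partners 4 were called lower and 3 higher (median -0.05): the inhibitor gene Fbxo5 (EMI1) fell by 0.35 and the subunit gene Anapc11 fell by 0.31, and Anapc13 and the activator gene Fzr1 (CDH1), which acts in late mitosis and G1, rose by 0.50 and 0.25. Of 14 cohesin and condensin II genes 5 were called lower and 2 higher (median -0.09). Esco2, the acetyltransferase of replicating cohesin, fell by 0.76 and Ncapg2 by 0.44, and the cohesin genes Stag2 and Pds5b rose by 0.46 and 0.15. The Pds5b call was lost without Gata4 replicate 2, 3 or 4 or EV replicate 2 or 4 (adjusted p = 0.051 to 0.063). Of 12 genes of the DREAM and MuvB complexes 7 were called lower and 1 higher (median -0.23), with E2f4 at -0.63, Lin54 at -0.41 and Tfdp2 at 0.19. The Tfdp2 call was lost without any 1 sample other than Gata4 replicate 5 and EV replicates 3 and 5 (adjusted p = 0.053 to 0.091). Without EV replicates 1 and 2 Cenpt, Anapc11, Pds5b and Tfdp2 were no longer called (adjusted p = 0.051, 0.066, 0.071 and 0.21). The E2f4 product represses cell cycle genes in resting cells, and the LIN54 protein is the subunit that contacts the CHR.

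In the CDK inhibitor list, 3 of 8 genes were called higher and 2 lower (median 0.06). Among all genes at the members' levels 23.2% were called higher and 26.7% lower. Cdkn1c (p57) stood at 3.90, 3.87, 4.24, 4.20 and 4.22 in the EV samples and at 5.48, 5.14, 4.54, 5.29 and 4.91 in the Gata4 samples, a log2 change of 0.99 ± 0.15 (SE) from EV values near the median of all features, and Cdkn2a, the p16 and ARF locus, rose by 0.51. Cdkn2c (p18) fell by 0.56 and the phosphatase gene Cdkn3 by 0.55. Cdkn1a (p21), a target of p53, stood at 12.59, 12.63, 12.60, 12.55 and 12.57 in the EV samples and at 12.68, 12.49, 12.67, 12.57 and 12.60 in the Gata4 samples, and the groups were mixed. Its log2 change was 0.01 (95% interval -0.09 to 0.12), that of Cdkn1b (p27) was 0.06 (-0.09 to 0.20), and neither was called. Among 19 replication and G1/S genes, 13 were called lower and 1 higher (median -0.40), with Rrm2 and Orc1 each at -0.75 and the thymidylate synthase gene Tyms at 0.22. Whether the members differed from that list was not tested.

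**Figure D5:**
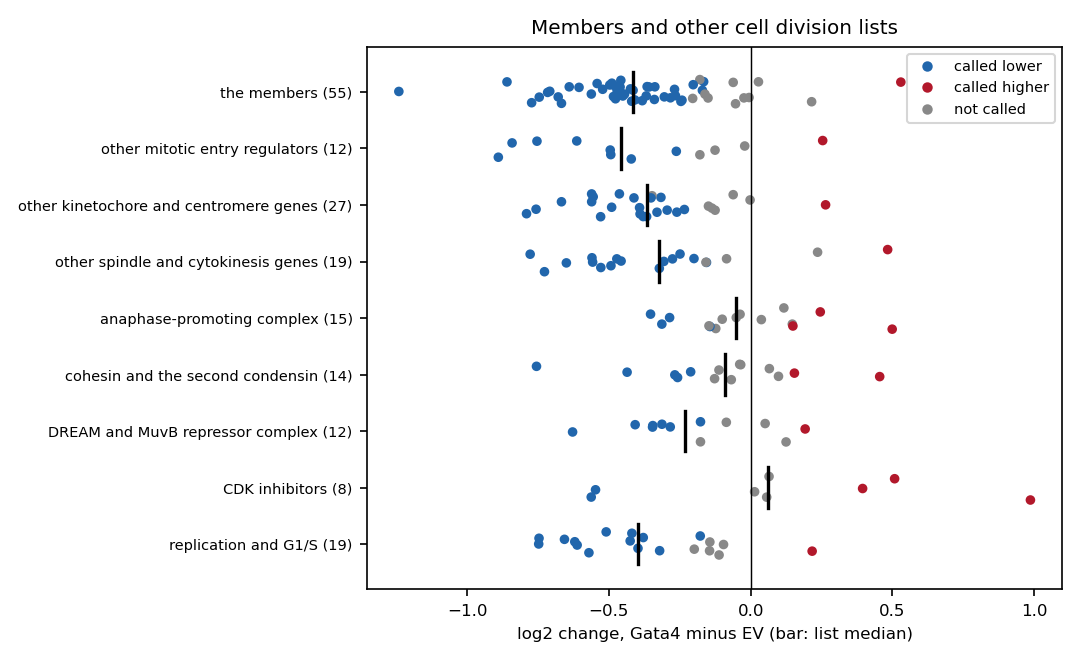
Log2 change, Gata4 minus EV, of the members and of the genes of 8 other cell division lists (points, with the number measured in brackets), coloured by their limma call, with a bar at each list's median. Medians lie between -0.32 and -0.46 for the members, the other mitotic lists and the replication list, and between -0.23 and 0.06 for the APC/C, cohesin, DREAM and CDK inhibitor lists.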

How the data were processed

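Total RNA of 10 bEnd3 samples, 5 Gata4 and 5 EV, was hybridised to Affymetrix arrays. Values are on a log2 scale in the deposited table, and RMA made them, per the submitters' processing notes. The genome build, probe annotation and RMA version were not given in the sources used here. All 10 columns have a median of 4.16, since RMA includes quantile normalization, so every change is relative to the other genes and a shift of all genes would be hidden. Of 23748 features, 23111 had 1 symbol, 0 several and 637 none. Groups were compared with limma 3.58.1 (R 4.3.3, lmFit and eBayes) over the 23111 genes, without covariates, calling a gene at a Benjamini-Hochberg adjusted p under 0.05, and the fit was tested on simulated data. The number of arrays limits the precision. Errors are moderated standard errors (SE) unless written as SD. Those of the differences within complexes are unmoderated SEs from the variances of the groups. Alternatives changed the prior, array weights, replicate block, filters on low values, features, normalization, centring, test and samples. The members, lists and alternatives were chosen with earlier results of these data known. Every member is named. Sample values are given for the 2 called members with the largest change per role group and for members called higher. Up to 2 called genes per direction are named for each other list by their change, and Cdkn1a, Cdkn1b and Gata4 are named in any case. The fit without EV replicates 1 and 2 and the sample values of Cdc20, Spc25, Cdkn1a and Cdkn1c were added after the data were seen.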

Additional observations from a re-analysis of the deposited data

Results flagged for a closer look

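Dixon's ratio, the gap between an extreme sample and its nearest neighbour divided by the range of the group, passed the critical value of 0.71 in 7 of 170 groups of 5 samples, those of the members, the named genes of the other cell division lists and Gata4. Cell type markers were not tested. Chance flags about 1 in 20 groups. In Gata4 replicate 2 the lowest value lay apart for Cdc20 (ratio 0.723, at 9.07 against 9.37 for the next), Mybl2 (0.807, at 7.88 against 8.23) and Gtse1 (0.727, at 10.39 against 10.50), and the highest for Top2a (0.716, at 10.01 against 9.92). In Gata4 replicate 1 the lowest value lay apart for Plk4 (0.712, at 7.50 against 7.79) and Sgo2a (0.872, at 6.47 against 6.65). In EV replicate 2 it did so for Sgo2a (0.719, at 7.14 against 7.39). Without Gata4 replicate 2, the log2 change of Cdc20 was 0.07 (limma adjusted p = 0.48) in place of -0.01.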

How the results depend on the processing

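Of the 45 called members, 38 kept their direction and their call in each of 21 alternative settings, and Birc5, Ccnb2, Cdca8, Cdk1, Espl1, Kif11 and Plk1 lost their call in at least 1, Ccnb2, Cdca8 and Espl1 with the exact rank-sum test alone. The number of members called lower lay between 38 (exact rank-sum test) and 45, and between 40 and 45 when 1 sample was left out. The exact rank-sum test called the 4865 genes whose groups did not overlap, so its 38 and the calls it lost restate the overlap. The number called higher was 2 in place of 1 with an intensity trend in the prior, array weights, a replicate block, features above the median or cyclic loess, Cenpa being the second, and between 1 and 2 when 1 sample was left out. The count without overlap lay between 38 and 47 and the median change between -0.44 and -0.38. With 1 sample left out they lay between 39 and 43 and between -0.43 and -0.38, and the genes called in all between 5367 and 5643. Leaving out samples can only keep or raise the count without overlap. Log2 changes near 0 turned sign without being called. With 1 sample left out, Nusap1 lay between -0.072 and 0.027, Spc25 between -0.0049 and 0.072, Cdc20 between -0.036 and 0.072 and Cdkn1a between -0.0048 and 0.042. Above 0 were Nusap1 without Gata4 replicate 1 (0.011) or EV replicate 5 (0.027) and Cdc20 without Gata4 replicate 2 (0.072) or EV replicate 3 (0.026) or 4 (0.0022). Below 0 were Spc25 without Gata4 replicate 5 (-0.0014) or EV replicate 1 (-0.0020) or 2 (-0.0049) and Cdkn1a without Gata4 replicate 1 (-0.0048) or 3 (-0.0044). Cyclic loess put Nusap1 at 0.00034, Cdc20 at 0.0097 and Cdkn1a at -0.011, array weights put Cdc20 at 0.0021, and leaving out EV replicates 1 and 2 put Spc25 at -0.055. The causes were not tested. Deviations of same-numbered samples correlated at -0.00024 to 0.13 over genes above the median level, and over the members at -0.083, 0.25, -0.23, 0.35 and 0.40 for numbers 1 to 5. Not every pair was above 0.1 in either, so the numbers were not taken as pairs. With the replicate block 43 members were called lower and 5644 genes in all, against 44 and 5915: Plk1 and Kif11 were no longer called (adjusted p = 0.058 and 0.066) and Ncapd2 was (0.037). Values near the low end of the table may be background.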
